A study of Mus musculus with 2 samples.

Results

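The genes described here are the ISG15 system and a set of antiviral effectors, 10 genes in all: Isg15, Usp18, Herc6, Rsad2, Cmpk2, Mx1, Mx2, Isg20, Ifi44 and Bst2. They were taken by symbol from the transcript identifiers of the deposited tables and joined by gene identifier to the gene tables, where each symbol had a single identifier, and they are 10 of 55536 annotated genes. RNA-seq of polyadenylated RNA had been done on bone marrow-derived macrophages of C57BL/6J mice, exposed for 30 min to a bacterial ligand at 100 ng/ml. The labels name this ligand in 2 ways, as lipid A in one field and as lipoprotein A in others, and which of them was used cannot be told apart here. Both libraries, biological replicates 2 and 1, belonged to that single group, with separate biosample records but a shared donor record, and neither the sex nor the age of the animals was recorded. With no untreated library in the series, none of the levels below shows induction, and differences between the libraries are differences between samples treated alike.

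These genes are known as targets of type I interferon. Interferon binds its receptor, the kinases Jak1 and Tyk2 pass the signal on, and a complex that contains Irf9 binds a DNA element called the ISRE, which many interferon-stimulated genes carry near their start site. Lipid A is known to act on TLR4, which drives this circuit in macrophages through the adaptor Ticam1, the factor Irf3 and secreted interferon beta. Isg15 encodes a ubiquitin-like protein that is attached to other proteins by an enzyme chain (Uba7, Ube2l6 and, in the mouse, Herc6). Usp18 removes it again. What the other members encode is given with their levels below.

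Summed over annotated genes, the expected counts came to 51904470 in replicate 2 and 37784941 in replicate 1. Levels are given as TPM, an abundance corrected for transcript length and scaled to the same total in each library. Of 9 macrophage markers, 9 reached 10 TPM in each library, with Adgre1, which encodes F4/80, at 710.3 TPM in replicate 2 and 799.6 TPM in replicate 1. Of 7 markers of plasmacytoid dendritic cells, which Bst2 also marks, none reached 1 TPM in both, and Klk1 had 0 counts throughout. Their summed level was 2.33 TPM in replicate 2 and 3.20 TPM in replicate 1. B cell and NK cell markers summed to below 4 TPM in each library. T cell markers summed to 82.2 and 111.5 TPM in replicates 2 and 1, nearly all from Cd4, while Cd3e had 0 counts in replicate 2 and 2 in replicate 1, and Cd8a had 0 in both. Among neutrophil markers, 3 of 8 reached 1 TPM in both libraries, and others did so in replicate 1 alone. The 8 together stood at 57.5 TPM in replicate 2 and 349.9 TPM in replicate 1, nearly all from S100a8, S100a9 and Ngp. Ly6g had 0 counts in replicate 2 and 1 in replicate 1, and Retnlg had 0 and 3. An annotated ribosomal RNA gene took 5.05% of all counts in replicate 2, with a 95% Wilson interval of 5.04% to 5.05%, and 10.9% in replicate 1, with one of 10.9% to 11%. Such intervals cover counting error within a library only, not the spread between libraries.

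All 10 members exceeded 5 TPM in each library. What a count of 0 would allow is 3 counts, or 0.0578 CPM in replicate 2 and 0.0794 CPM in replicate 1. Isg20, with the fewest counts of the members, lay well above that, at 8.90 CPM in replicate 2 and 3.65 CPM in replicate 1. In replicate 2 the members ran from 16.7 TPM for Isg20 to 513 TPM for Bst2, and in replicate 1 from 5.90 TPM for Mx2 to 284.7 TPM for Bst2. Their share of all counts was 0.124% in replicate 2, with a 95% Wilson interval of 0.123% to 0.125%, and 0.0538% in replicate 1, with one of 0.0531% to 0.0546%, again for counting error only. Across the order of mean levels, Bst2 was followed by Rsad2, Isg15, Cmpk2, Mx1, Usp18, Ifi44, Herc6, Mx2 and Isg20. Bst2 stood apart from Rsad2 in that its lower library lay above the higher library of Rsad2. For every other pair of neighbours in that order the ranges of the 2 libraries overlapped, and 3 neighbouring pairs changed places in replicate 1, where Usp18 lay above Mx1, Herc6 above Ifi44 and Isg20 above Mx2.

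**Figure D1:**
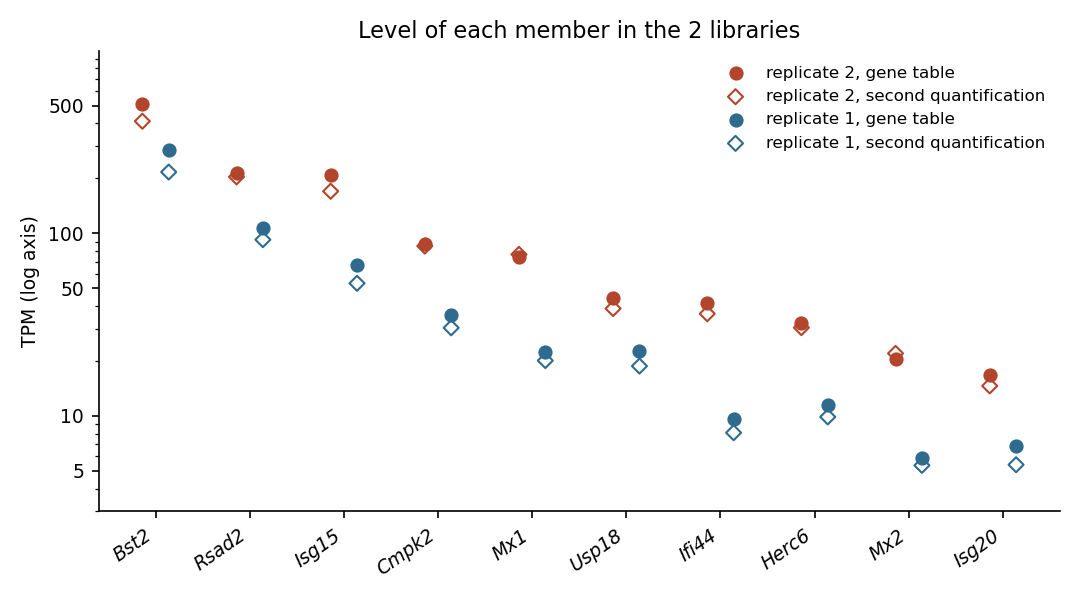
TPM (log axis) of the 10 members in replicate 2 (red, left of each pair) and replicate 1 (blue, right), from the gene tables (circles) and from the second deposited quantification (diamonds), ordered by mean level. Every member was higher in replicate 2 in both quantifications, and Bst2 was the most abundant, at 513 and 284.7 TPM in replicates 2 and 1 of the gene tables.

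Every member stood higher in replicate 2 than in replicate 1. All 10 did so, against 60.7% of the 11106 genes whose mean reached 1 TPM, and 7 of the 10 were more than 2-fold higher on the scale of TPM + 1, against 3.67% of those genes. Beyond 3-fold lay 4 of the 10 (Ifi44, Mx1, Mx2 and Isg15), against 1.16% of those genes, and none of the 10 was more than 2-fold lower, against 1.27%. Their log2 ratio of TPM + 1, replicate 2 over replicate 1, had a median of 1.35 and ran from 0.85 for Bst2 to 2.00 for Ifi44. Over all 11106 genes the median was 0.09 and the SD 0.50. This ratio compares 2 libraries of a single group, no condition differs between them, and no test across replicates can be made of it. The members were chosen with the pattern between libraries in interferon genes known, so the contrast with all genes may be partly built in. A difference in RNA per cell and a difference in the share of responding cells cannot be told apart in bulk RNA. Neutrophil markers went the other way, with 3 of the 3 whose mean reached 1 TPM more than 2-fold lower in replicate 2, as did the ribosomal RNA share given above, and their part in these ratios was not tested.

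**Figure D2:**
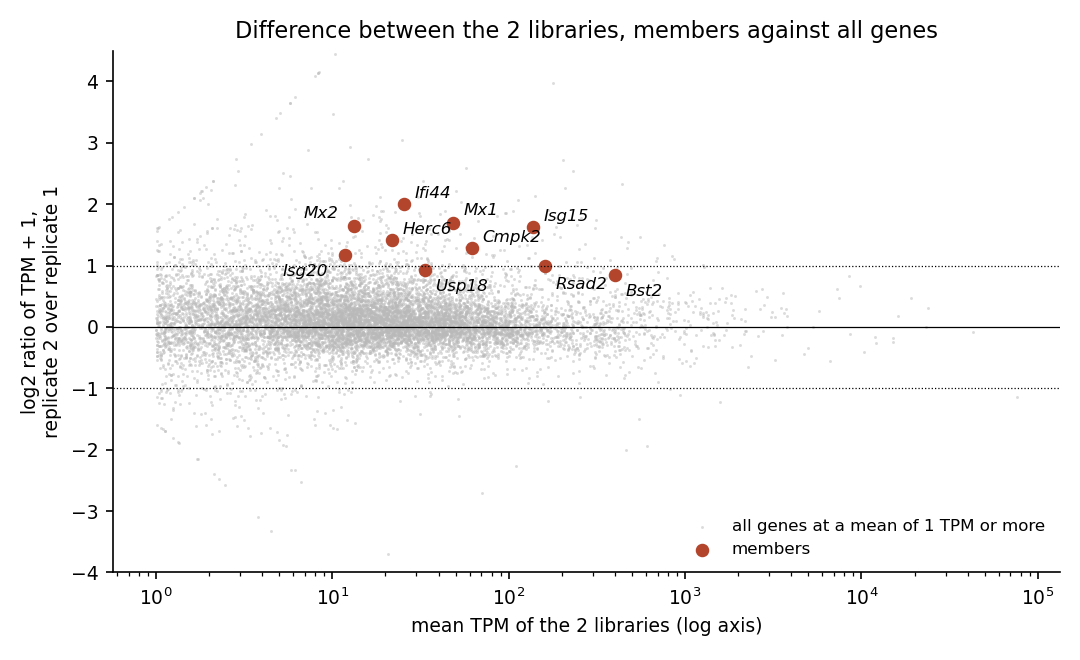
Log2 ratio of TPM + 1, replicate 2 over replicate 1, against mean TPM (log axis) for the 11106 genes whose mean reached 1 TPM (grey) and the 10 members (red), with dotted lines at 2-fold. The members lie between 0.85 and 2.00, and 6 genes fall outside the vertical axis.

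Isg15 (ENSMUSG00000035692.6, mm10 chr4:156199424-156200818, minus strand) encodes the ubiquitin-like protein itself, and a single transcript of 2 exons is annotated for it. It was at 207.6 TPM in replicate 2 and 66.8 TPM in replicate 1, a mean of 137 ± 99.5 TPM (SD, n = 2). These levels came from 3434 expected counts in replicate 2 and 821 in replicate 1. Scaled to all counts, the ratio of replicate 2 to replicate 1 was 3.04 (95% exact binomial interval 2.82 to 3.29, counting error only), and 1.03% of the 11106 genes had a higher ratio of TPM + 1. On the scale of TPM + 1, Ifi44, Mx1 and Mx2 had higher ratios than Isg15.

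Usp18, the protease that takes ISG15 off its targets and also dampens signalling from the interferon receptor, was much less abundant. It was at 44.2 TPM in replicate 2 and 22.8 TPM in replicate 1 (mean 33.5 ± 15.1, SD, n = 2), from 2289 and 849 counts. Its log2 ratio of TPM + 1, 0.93, fell just short of 2-fold, so the balance of ligand mRNA to protease mRNA was not the same in both libraries: Isg15 stood at 4.70 times the TPM of Usp18 in replicate 2 and at 2.93 times in replicate 1. Herc6 (mm10 chr6:57581000-57664632), the mouse E3 ligase that joins ISG15 to its targets, was at 32.2 TPM in replicate 2 and 11.5 TPM in replicate 1 (mean 21.8 ± 14.6, SD, n = 2). Isg15 was at 6.45 times the TPM of Herc6 in replicate 2 and at 5.82 times in replicate 1, a smaller change than that against Usp18. In scaled counts this change was not seen: the ratio of replicate 2 to replicate 1 was 3.04 for Isg15 and 3.05 for Herc6.

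Other genes of the conjugation pathway were also higher in replicate 2. Besides Isg15, Usp18 and Herc6, the list of 11 conjugation genes held 8 others, all 8 of which exceeded 1 TPM and were higher in replicate 2, but none by more than 2-fold in the gene tables. In the second quantification 1 of the 8 was beyond 2-fold, Uba7, at 43.0 TPM in replicate 2 and 19.6 TPM in replicate 1, a log2 ratio of TPM + 1 of 1.09 against 1.01 for Usp18. The median log2 ratio of TPM + 1 of the 8 genes was 0.50 in the gene tables, 0.37 with TMM scaling and 0.62 in the second quantification. In the gene tables Uba7, which encodes the activating enzyme, was at 54.7 TPM in replicate 2 and 31.3 TPM in replicate 1. Ube2l6, the conjugating enzyme gene, was at 91.9 TPM in replicate 2 and 62.6 TPM in replicate 1. Isg15 therefore exceeded Ube2l6 2.26 times in replicate 2 and 1.07 times in replicate 1, where the levels of both were nearly equal. Trim25, a ubiquitin ligase of the RIG-I pathway that can also conjugate ISG15, was at 118.6 and 91.2 TPM in replicates 2 and 1. The ligase gene Arih1 stood at 34.7 and 33.5 TPM in replicates 2 and 1, the closest of the list. Among proteases reported to act on ISG15 conjugates, Usp16 was at 28.8 TPM in replicate 2 and 17.4 TPM in replicate 1, Usp21 at 15.9 TPM in replicate 2 and 11.4 TPM in replicate 1, and Usp24 at 13.4 TPM in replicate 2 and 11.9 TPM in replicate 1. Itgal, an integrin chain that serves as a receptor for secreted ISG15, was lowest, at 6.67 and 4.05 TPM in replicates 2 and 1.

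Promoter windows show where the members carry the ISRE core. Windows of 250 bases before to 50 after the RefSeq start site (GRCm38.p6, the assembly also called mm10) were given for 7 of the 10 members, in 9 windows. The ISRE core was searched on both strands as GAAA, then 2 bases of any kind, then GAAA. It was found in 3 of these 7 genes, Isg15, Bst2 and Rsad2, against 3.99% of the 27025 genes with a window. Windows of Ifi44, Herc6, Cmpk2 and Isg20 held no match, which says only that these letters are not in those windows. The 3 windows with a match are printed because they show its place and number, and that of Ifi44 because this gene had the widest gap between the libraries. They lie at chr4:156200769-156201068 for Isg15, chr8:71537423-71537722 for Bst2, chr12:26456403-26456702 for Rsad2 and chr3:151749861-151750160 for Ifi44, all on the minus strand, and are written from 5′ to 3′ along the gene with the ISRE core in capitals.
Isg15 promoter: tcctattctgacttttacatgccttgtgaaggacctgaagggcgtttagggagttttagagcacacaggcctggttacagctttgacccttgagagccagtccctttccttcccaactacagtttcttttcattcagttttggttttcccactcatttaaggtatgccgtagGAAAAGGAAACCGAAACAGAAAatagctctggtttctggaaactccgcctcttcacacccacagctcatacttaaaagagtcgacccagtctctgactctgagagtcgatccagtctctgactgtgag
Bst2 promoter: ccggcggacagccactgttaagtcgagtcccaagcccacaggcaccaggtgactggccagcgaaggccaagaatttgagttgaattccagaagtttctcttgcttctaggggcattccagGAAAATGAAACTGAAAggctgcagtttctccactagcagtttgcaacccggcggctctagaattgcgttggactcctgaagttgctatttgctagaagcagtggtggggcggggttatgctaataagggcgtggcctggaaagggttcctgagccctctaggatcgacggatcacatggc
Rsad2 promoter: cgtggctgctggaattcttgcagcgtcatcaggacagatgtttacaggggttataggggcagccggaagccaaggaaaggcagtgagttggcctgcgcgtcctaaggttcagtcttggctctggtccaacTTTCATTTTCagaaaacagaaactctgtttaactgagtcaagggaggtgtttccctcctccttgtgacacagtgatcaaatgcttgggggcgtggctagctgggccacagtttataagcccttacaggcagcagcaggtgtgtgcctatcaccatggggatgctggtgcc
Ifi44 promoter: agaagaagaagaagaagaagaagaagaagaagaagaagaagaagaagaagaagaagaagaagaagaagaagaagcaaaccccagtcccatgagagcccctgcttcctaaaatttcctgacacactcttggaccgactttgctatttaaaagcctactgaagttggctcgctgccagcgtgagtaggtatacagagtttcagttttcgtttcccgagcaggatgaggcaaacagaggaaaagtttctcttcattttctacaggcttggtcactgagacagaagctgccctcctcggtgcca
In Isg15 there were 3 overlapping matches, the first beginning 78 bases before the start site and the last ending 57 bases before it. Bst2 had 2 overlapping matches between 130 and 115 bases before the start, and Rsad2 had 1 on the opposite strand between 120 and 111 bases before it.

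A pair of other cores was searched on both strands in the same windows. The palindromic GAS core TTCNNNGAA, known from interferon gamma targets, occurred once in Bst2 and once in a window of Isg20, while 9.55% of genes held it. In Bst2 it overlapped the first ISRE match by 3 bases. The NF-kB core, searched as GGGAA, 3 bases of any kind and CC, occurred once in Rsad2 and once in another window of Isg20, while 6.59% of genes held it. These matches are descriptions of sequence, and the files used here hold no measurement of binding.

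**Figure D3:**
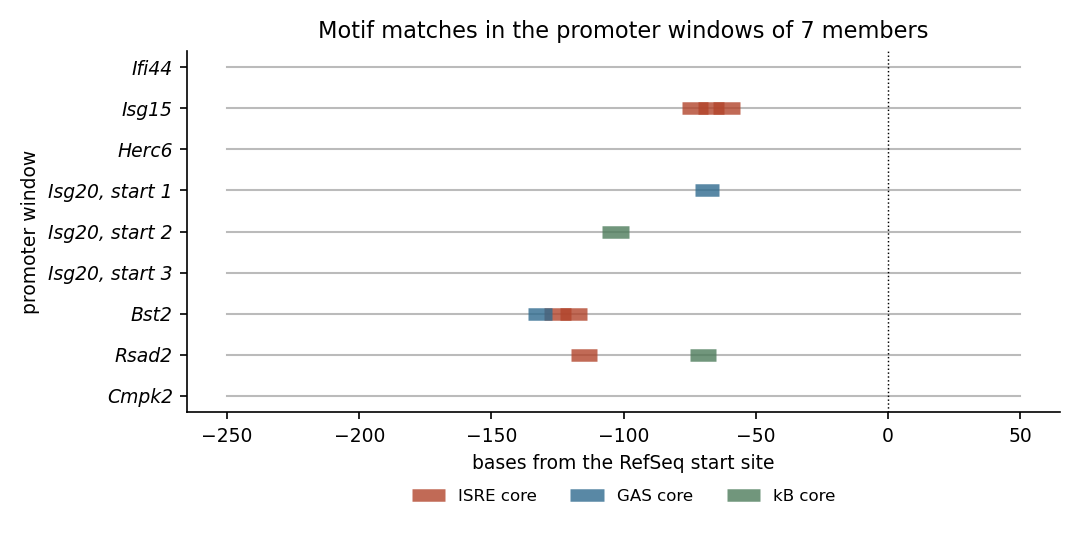
Matches to the ISRE core (red), the GAS core (blue) and the NF-kB core (green, marked kB) along the 9 promoter windows of 7 members, in bases from the RefSeq start site. ISRE matches lie between 130 and 57 bases before the start in Isg15, Bst2 and Rsad2.

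Rsad2 and Cmpk2 are neighbours on chromosome 12. They are transcribed away from each other, with 12752 bases between the annotated ends of the genes, and Rsad2 occupies chr12:26442746-26456452 and Cmpk2 chr12:26469204-26479837 on mm10. Rsad2 encodes viperin, a radical SAM enzyme that turns CTP into a chain-terminating nucleotide, and Cmpk2 a mitochondrial kinase of pyrimidine nucleotides whose product feeds that reaction. Rsad2 was at 214 TPM in replicate 2 and 106.6 TPM in replicate 1 (mean 160.4 ± 76.0, SD, n = 2). It had the most reads of all members, 26547 expected counts in replicate 2 and 9369 in replicate 1, and so the narrowest counting interval: the ratio of scaled counts was 2.06 (95% exact binomial interval 2.01 to 2.11). Cmpk2 was at 87.8 TPM in replicate 2 and 35.5 TPM in replicate 1 (mean 61.6 ± 37.0, SD, n = 2). On the scale of TPM + 1, Rsad2 had a log2 ratio of 0.9995, just under 2-fold, and Cmpk2 one of 1.28. The pair kept its order, with Rsad2 at 2.44 times the TPM of Cmpk2 in replicate 2 and at 3.0 times in replicate 1.

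Genes that work beside this pair were divided in direction. Of 11 genes for pyrimidine nucleotides, iron-sulfur assembly and signalling partners of viperin, 5 were higher and 6 lower in replicate 2, and none was beyond 2-fold in either direction, with a median log2 ratio of -0.05 that turned to 0.02 with total-count scaling and 0.10 in the second quantification. The housekeeping kinase gene Cmpk1 was lower in replicate 2, at 71.2 TPM against 99.1 TPM in replicate 1. Fdps, a farnesyl diphosphate synthase that viperin is known to bind, was higher in replicate 2, at 75.8 TPM against 44.4 TPM in replicate 1. Cmpk2 was at 1.23 times the TPM of Cmpk1 in replicate 2 and at 0.36 times in replicate 1. Samhd1, a hydrolase of deoxynucleotides that restricts retroviruses, was the most abundant of the list at 483.6 TPM in replicate 2 and 363.4 TPM in replicate 1.

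Mx1 and Mx2 encode dynamin-like GTPases that trap viral nucleoproteins, and in C57BL/6 mice both genes are known to be defective, Mx1 through a deletion of coding exons and Mx2 through a frameshift. Both were nonetheless expressed as RNA. Mx1 (mm10 chr16:97447035-97462907) was at 74.3 TPM in replicate 2 and 22.4 TPM in replicate 1 (mean 48.3 ± 36.7, SD, n = 2). Mx2 (mm10 chr16:97535308-97560900), which the annotation classes as a polymorphic pseudogene, was at 20.6 TPM in replicate 2 and 5.90 TPM in replicate 1 (mean 13.2 ± 10.4, SD, n = 2). The log2 ratios of TPM + 1 were alike, 1.69 for Mx1 and 1.64 for Mx2, and Mx1 stood at 3.61 times the TPM of Mx2 in replicate 2 and at 3.79 times in replicate 1. The 2 genes share sequence: of 4001 distinct 31-base words in Mx1 transcripts, 289 also occur in Mx2. Reads within such shared stretches could be assigned to either gene.

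Transcript shares set the Mx genes apart from the other members. Of the TPM of Mx1, 54.2% in replicate 2 and 51.7% in replicate 1 lay on transcripts that the annotation does not class as protein-coding. The median of that share over 6247 protein-coding genes at 10 TPM or more in both libraries was 2.23% in replicate 2 and 1.10% in replicate 1, and 4.19% and 4.43% of those genes exceeded Mx1 in replicates 2 and 1. Transcripts classed as targets of nonsense-mediated decay took 41.7% of the TPM of Mx1 in replicate 2 and 39.7% in replicate 1. The leading one was Mx1-205, with 31.9% in replicate 2 and 33.0% in replicate 1, and the protein-coding Mx1-202 took 25.4% in replicate 2 and 21.7% in replicate 1. Mx1-201, the model of 15 exons with the longest coding sequence of the gene, had 3.82 counts in replicate 2 and 4.10 in replicate 1. In the second deposited quantification a different decay-class transcript led, Mx1-203, with 20.8% in replicate 2 and 27.8% in replicate 1, and Mx1-201 had 438 and 55.2 counts in replicates 2 and 1. Which Mx1 transcript is named as the main one thus depends on the quantification, and the share outside the protein-coding class was above 50% in all 4 estimates.

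For Mx2 the share outside the protein-coding class was 100%, since the only transcript of that class, Mx2-201, had 0 counts in both libraries and both quantifications. Mx2-202, classed as polymorphic pseudogene, took 59.9% in replicate 2 and 62.7% in replicate 1. A retained-intron transcript of 537 bases, Mx2-205, took 30.5% of the TPM in replicate 2 and 32.9% in replicate 1, but from 56.2 and 13.4 counts, against 931 and 199 counts for Mx2-202 in replicates 2 and 1. The same holds for Mx1-204, a transcript of 481 bases that took 17.8% of the TPM of Mx1 in replicate 2 and 26.4% in replicate 1 on 94.1 and 32.7 counts. Shares on transcripts this short rest on few reads.

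**Figure D4:**
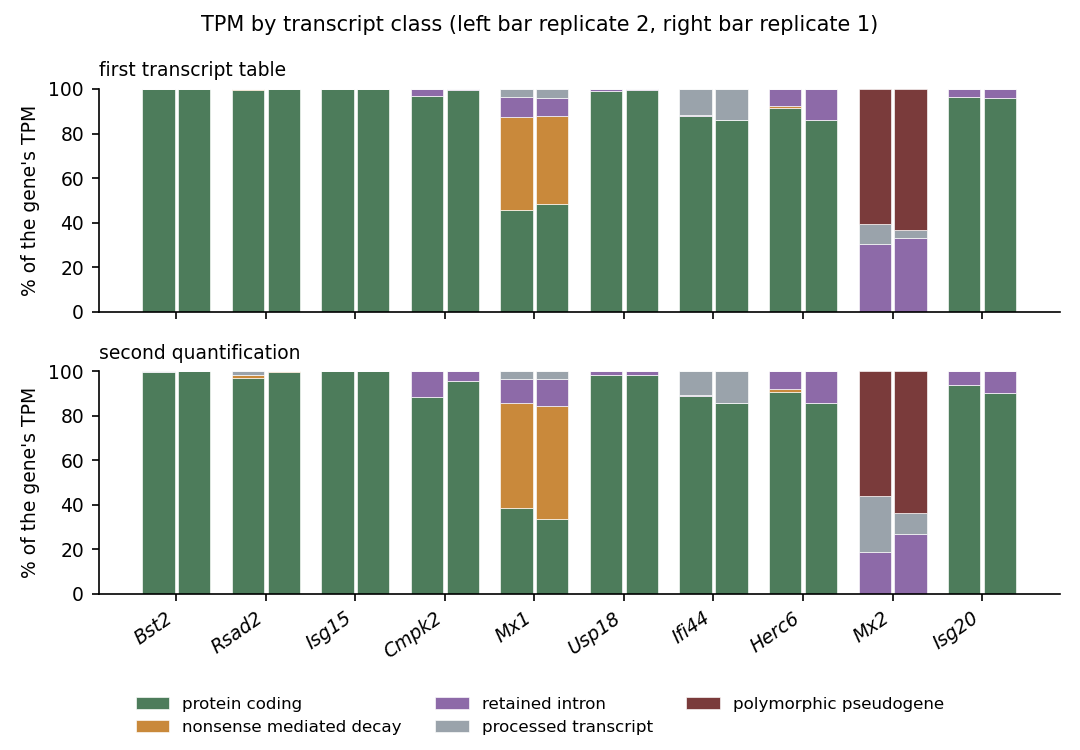
Share of each member's TPM by the annotated class of its transcripts, in the first transcript table (upper panel) and the second quantification (lower panel), with replicate 2 as the left bar and replicate 1 as the right bar of each pair. Protein-coding transcripts hold over 80% of the TPM of 8 members, whereas Mx1 is divided and Mx2 lies wholly in other classes.

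In the other 8 members a single protein-coding transcript took most of the gene. Its share in the first transcript table ran from 88.1% for Ifi44 to 100% for Isg15 and Bst2 in replicate 2, and from 86.0% for Herc6 to 100% for Isg15 and Bst2 in replicate 1. Minor transcripts moved unevenly. Cmpk2-204, a retained-intron transcript, had 199 counts in replicate 2 and 10.4 in replicate 1, and in the second quantification 226 and 22.6. Rsad2-202, of the decay class, had 68.7 counts in replicate 2 and 9.99 in replicate 1, but 568 and 61.8 in the second quantification. The retained-intron transcript Herc6-205 went the other way, with 12.9 counts in replicate 2 and 23.7 in replicate 1, or 1.43% and 10.1% of the TPM of Herc6. Ifi44-204, a processed transcript of Ifi44, took 10.4% in replicate 2 and 13.7% in replicate 1, on 37.8 and 8.94 counts.

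Isg20 (mm10 chr7:78913424-78920396) encodes an exonuclease that degrades RNA, and Ifi44 (mm10 chr3:151730922-151749960) a cytoplasmic protein induced by interferon. Isg20 was the least abundant member on average, at 16.7 TPM in replicate 2 and 6.84 TPM in replicate 1 (mean 11.8 ± 6.97, SD, n = 2), from 462 and 138 counts. Its counting interval was the widest relative to its ratio, 2.44 with a 95% exact binomial interval of 2.01 to 2.97. Ifi44 was at 41.5 TPM in replicate 2 and 9.62 TPM in replicate 1 (mean 25.6 ± 22.5, SD, n = 2), from 3458 and 558 counts. With a ratio of scaled counts of 4.51 (95% exact binomial interval 4.12 to 4.94), it differed most between the libraries, and its rank among all genes by TPM was 2850 in replicate 2 and 6736 in replicate 1. Its neighbour and paralog Ifi44l, 8777 bases away, had 0 counts in both libraries, so nothing was seen of it at this depth.

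Bst2 (mm10 chr8:71534255-71537456) encodes tetherin, a membrane protein that holds budding virus particles at the cell surface. It was at 513 TPM in replicate 2 and 284.7 TPM in replicate 1 (mean 399 ± 161, SD, n = 2), ranks 246 and 463 among all genes. Its 9139 and 3755 counts gave the lowest ratio of the members, 1.77 (95% exact binomial interval 1.71 to 1.84), and 5.83% of the 11106 genes had a higher ratio of TPM + 1. The most abundant member was thus the one with the lowest ratio of scaled counts. On the scale of TPM + 1 the 3 members short of 2-fold were Bst2, Usp18 and Rsad2. Rsad2 lay close to the limit and passed it in the ratio of scaled counts and in the second quantification, where its log2 ratio was 1.13. With TMM scaling the log2 ratio of Rsad2 was 0.91, again short of 2-fold. Usp18 also passed the limit in the second quantification, at a log2 ratio of 1.01.

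Other interferon genes did not all stand higher in replicate 2. Ifnb1, the gene of interferon beta, had 59 counts in replicate 2 and 1 in replicate 1, a ratio of scaled counts of 43 with a 95% exact binomial interval of 7.41 to 1720. Ifna1 and Ifna4 had 0 counts in both libraries and Ifna2 had 2 in each. Of 18 genes of interferon induction and signalling, 14 reached a mean of 1 TPM, 11 of them higher and 3 lower in replicate 2, and 1, Ifnb1, beyond 2-fold. Their median log2 ratio was 0.44, against 0.23 with TMM scaling and 0.59 in the second quantification. With TMM, 10 were higher and 4 lower, and with a pseudocount of 5 TPM none was beyond 2-fold. The receptor chain gene Ifnar2 was lower in replicate 2, at 143.9 TPM against 171.1 TPM in replicate 1. Irf7, the factor that amplifies interferon production, was at 207.4 TPM in replicate 2 and 112.3 TPM in replicate 1. The feedback inhibitor gene Socs1 was below 1 TPM in both, with 54 and 20 counts in replicates 2 and 1.

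A list of other antiviral genes lay between these and the members. Of 25 matched genes, 24 reached a mean of 1 TPM, of which 20 were higher and 4 lower in replicate 2, 5 by more than 2-fold (Ifitm3, Ifitm6, Ifih1, Rtp4 and Phf11d), with a median log2 ratio of 0.72. That count of 5 was 3 with TMM scaling and 9 in the second quantification. Ifitm3, which blocks virus entry from endosomes, was at 1686 TPM in replicate 2 and 833.8 TPM in replicate 1. The related Ifitm2 was at 1087 TPM in replicate 2 and 742.4 TPM in replicate 1. Lgals3bp, a secreted glycoprotein, was at 945.6 TPM in replicate 2 and 1016 TPM in replicate 1, and so was lower in replicate 2. Of 12 housekeeping genes, 5 were higher and 7 lower in replicate 2, none beyond 2-fold, with a median log2 ratio of -0.10, and among 9 macrophage markers 3 were higher and 6 lower, with Cd14, the co-receptor of TLR4, the 1 beyond 2-fold at 927.9 TPM in replicate 2 and 439.9 TPM in replicate 1. Cd14 fell short of 2-fold with TMM scaling, at a log2 ratio of 0.94.

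**Figure D5:**
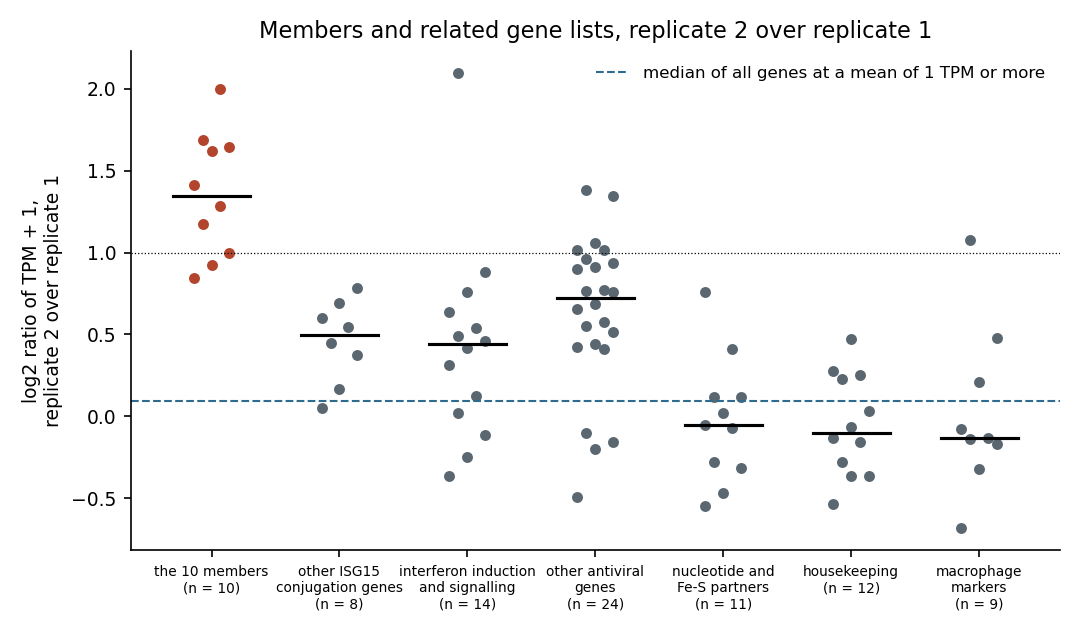
Log2 ratio of TPM + 1, replicate 2 over replicate 1, for the members (red) and for genes of 6 related lists whose mean reached 1 TPM, without the members (grey), with list medians as bars and the median of all genes as the dashed line. Medians are 1.35 for the members, 0.50 for other conjugation genes, 0.44 for interferon induction and signalling, 0.72 for other antiviral genes, -0.05 for nucleotide and iron-sulfur partners, -0.10 for housekeeping genes and -0.13 for macrophage markers.

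Most 31-base words in each member's transcripts occurred in no other gene, and the share of reads this covers was not measured. Cmpk2 and Bst2 shared none of their 31-base words with transcripts of any other gene, and Rsad2, Isg20 and Ifi44 shared under 1%. Mx1 shared 8.67% and Mx2 7.96%, mainly with each other. Isg15 shared 13.1% of its words, most of them with AC151275.1, which was at 0.14 TPM in replicate 2 and 0.18 TPM in replicate 1. Herc6 shared 13.8%, mainly with Gm45193, a gene on the same strand that overlaps it over 1269 exonic bases and was at 0.16 TPM in replicate 2 and 0 TPM in replicate 1. Usp18 shared 3.48% of its words with the antisense gene Gm44148, listed at 0 in both libraries. The setting of strand in the counting is not given in the sources used here, so reads of the antisense overlap could not be told apart from those of Usp18.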

How the data were processed

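Each library had 3 deposited tables made, per the deposited text files, on mm10 with annotation M21. The tools and versions behind these tables are not given in the sources used. The gene and first transcript tables come from a transcriptome alignment, and the second transcript table from reads and an index. Expected counts in the deposited tables are estimated reads, not normalized. Deposited TPM values have the same sum in every table, over all its entries. The deposited percent of each gene's TPM on a transcript was recomputed from TPM. Entries that name no gene were left out, with 0.0698% of the counts of replicate 2 and 0.0891% of those of replicate 1.

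Levels were compared as log2(TPM + 1) over genes whose mean reached 1 TPM. Both libraries form 1 group, so no p-value is given. Their separate biosample records share a donor record, and how much of the spread between them is technical was not tested. Ratios of counts, rounded and scaled by total counts, have 95% exact binomial intervals for counting error alone, since the sources used name no molecular identifiers and reads may be PCR copies. The same limit holds for the Wilson intervals of shares of counts. The ratio of scaled counts and its interval were tested on simulated Poisson counts. These hold counting error alone, so they cannot show how the interval fares with other spread. Scaling alternatives used edgeR 4.0.16 (TMM) and DESeq2 1.42.0 in R 4.3.3, with other steps in Python 3.11.15 and SciPy 1.17.1. Promoter windows are RefSeq's, and shared words were 31 bases long. The members and lists were chosen with earlier results of these data known, and the pattern between libraries in interferon genes was among them. The genes open to naming were all members and conjugation genes. In the other lists they were the 4 of highest mean TPM and any below 1 TPM in both libraries, not all of which are named. Ifnb1, Cd14, other antiviral genes beyond 2-fold, chromosomal neighbours, genes that share sequence with members and the ribosomal RNA gene fall outside that rule and were chosen after their values were seen. Shfl was not matched and was left out, and 1 gene of the interferon list is not reported here by name. Alternatives were pseudocounts of 0.1 and 5 TPM, scaling, filters, fold limits, the second quantification, the posterior mean and leaving out each replicate.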

Additional observations from a re-analysis of the deposited data

How the results depend on the processing

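All 10 members were at the detection limit or above with limits of 0.5 and 5 TPM, in the second quantification and in each library alone (10 to 10). Mean TPM of the 10 members stayed within 1 SD in the second quantification and as the posterior mean; in each library alone this holds by construction with 2 libraries. The log2 ratio stayed above 0 for all 10 members under each alternative. The median log2 ratio of the members, 1.35, was 1.19 with a pseudocount of 5 TPM, 1.47 with total-count scaling and 1.49 in the second quantification. The 7 members beyond 2-fold were 4 beyond 3-fold and 10 beyond 1.5-fold, where 13.1% of all genes lay, and over the other settings the count ran from 6 with a pseudocount of 5 TPM, against 1.58% of all genes, to 9 in the second quantification, against 4.63%. The 3.67% of all genes beyond 2-fold was 2.29% with no filter, 2.93% at a mean of 10 TPM or more, 4.39% with TMM, 4.44% with DESeq2 size factors and 5.76% with total-count scaling. The median log2 ratio of all genes was -0.01 with TMM and 0.12 with total-count scaling, and 0.19 in the second quantification, and the members lay above it by 1.12 to 1.35 under each setting. The cause of these shifts was not tested. The share of the leading transcript moved by more than 1 SD between quantifications in 7 members. No paired analysis was possible because both libraries belong to a single group. Depth limits Isg20, with 462 and 138 counts in replicates 2 and 1, and transcripts under 100 counts.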

Other observations

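Genes beside the members on the chromosome did not all differ between the libraries as the members did. Agrn, 1936 bases from Isg15, was at 5.03 TPM in replicate 2 and 2.72 TPM in replicate 1. Ppm1k, 45532 bases from Herc6, was at 5.61 TPM in replicate 2 and 2.73 TPM in replicate 1. Pyurf, on the other side of Herc6, was at 3.43 TPM in replicate 2 and 2.93 TPM in replicate 1. Mvb12a, a gene of the ESCRT machinery 5466 bases from Bst2, was at 63.4 TPM in replicate 2 and 44.7 TPM in replicate 1. Aen, which encodes an exonuclease and lies 2215 bases from Isg20, was at 12.3 TPM in replicate 2 and 12.4 TPM in replicate 1. Bace2 and Fam3b, the coding neighbours of Mx1, were below 0.1 TPM in both libraries, as were both coding neighbours of Usp18. Tmprss2, 3782 bases from Mx2, was at 0.37 TPM in replicate 2 and listed at 0 in replicate 1.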
